A study of Homo sapiens with 12 samples.

Results

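The 24 h response to erlotinib was described in PC9 cells that carried a GFP vector, the control line of a study of microRNAs and drug tolerance. The comparison took the 3 arrays of cells given 2 μM erlotinib against the 3 arrays of cells given DMSO, which are 6 of the 12 arrays of the series; the other 6 are of a stable line that expresses pre-miR-371. PC9 is a human lung adenocarcinoma line that grows on signals from a mutant EGFR, and erlotinib blocks the kinase of that receptor. According to the study's methods the stable lines were made with lentiviral vectors, the control hairpin being carried in a vector with copGFP. There was 1 stable line of each kind, and drug and DMSO were added once the cells neared confluence. Nothing in the labels ties an array to a culture of its own, so the p-values speak only for the spread between arrays, which may be partly technical. The values are log2 expression values per Affymetrix probe set, and for each of the 19775 genes the probe set brightest on average over all 12 arrays was taken.

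EGFR is a receptor tyrosine kinase that, when active, feeds the RAS-RAF-MEK-ERK cascade and the PI3K-AKT pathway. ERK switches on immediate early transcription factors and also the phosphatases and adaptor proteins that restrain it, while AKT keeps the FOXO transcription factors out of the nucleus. Together these signals sustain MYC and the D and E cyclins, which carry cells from G1 into DNA synthesis. Tumour cells that depend on mutant EGFR are known to leave the cell cycle when the kinase is blocked, and some of them die.

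Erlotinib changed 5104 of the 19775 genes, 25.8% of those tested. A gene is called higher or lower here where it differs by more than 1.5-fold with an adjusted p below 0.05, and every change below is the log2 fold change of erlotinib against DMSO. There were 2793 genes called higher (14.1%) and 2311 called lower (11.7%), and 54.1% of all genes had 3 erlotinib arrays that did not overlap the 3 DMSO arrays. The groups did not overlap in 2787 of the genes called higher and 2310 of those called lower, so a lack of overlap adds little to a call. Every gene past the fold limit also passed the adjusted p, so the fold limit alone set these counts. Among the 9650 genes whose mean over all arrays reached a log2 value of 6, 1974 were called higher and 2024 lower. Shares of all genes are therefore low marks for lists of well expressed genes. The split depends on scaling: with each array centred on its median over the 19775 genes (5.73 to 5.75 in DMSO and 5.93 in all 3 erlotinib arrays), which moved the median of all genes by -0.19, 2032 genes were called higher and 3246 lower. Over all probe sets of the array the median was 4.31 to 4.38 in DMSO and 4.38 to 4.41 in erlotinib, and the upper quartile 6.77 to 6.92 and 6.83 to 6.88. The typical gene had an SD of 0.107 over the 3 DMSO arrays and 0.092 over the 3 erlotinib arrays. A lower value in bulk RNA cannot tell fewer cells with a transcript from less of it in each cell, and the values are relative to the RNA put on the array, so a change of all RNA per cell would not be seen.

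The keratin and adhesion genes of a lung epithelial line were present on all 6 arrays. Mean log2 values in DMSO were 13.66 for KRT18, 12.66 for KRT7, 12.65 for EPCAM and 10.87 for CDH1. The lung lineage genes NKX2-1, NAPSA and SFTPB, which define many adenocarcinomas, stayed under a log2 value of 6 in both groups. Of 10 fibroblast markers 9 had means under 6 and none was called, and all 10 leukocyte markers measured were under 6. LYZ, a lysozyme of myeloid cells, and ITGAM were nevertheless called higher, from 3.85 to 5.23 and from 4.60 to 5.74. Among 10 endothelial markers 8 were under 6, and PECAM1, an adhesion receptor, rose from 7.90 to 9.17. The log2 of the summed level was 7.26 to 7.51 in DMSO and 7.75 to 7.78 in erlotinib for the leukocyte list and 8.75 to 8.76 and 9.55 to 9.60 for the endothelial list. The part of these markers in any result below was not tested.

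TNFSF10, which encodes the death ligand TRAIL, had the widest positive log2 difference among called genes. TNFSF10 had log2 values of 3.12, 2.98 and 3.34 in DMSO and 11.06, 11.04 and 10.98 in erlotinib. Its DMSO arrays lie under the median of all probe sets, where the values do not show how far a transcript is above background, so differences that start or end there are not ranked further. Its 2 other probe sets had log2 fold changes of 6.01 and 7.19. VTCN1, an inhibitory ligand of the B7 family, rose by 6.71 on the log2 scale and ALPP, a placental alkaline phosphatase whose transcript is close to those of its paralogs, by 6.01. SELENOP, which carries selenium in plasma, rose by 5.55, GABRP, a GABA receptor subunit, by 5.45, and DEPP1, a known FOXO target, by 4.92. The 2 other probe sets of SELENOP had changes of 0.39 and 1.17, and the other one of DEPP1 a change of 1.76. The metalloreductase STEAP4, the interferon-inducible GTPase GBP2 and CYP4F3, which breaks down leukotriene B4, rose by 4.81, 4.70 and 4.70 on the same scale, with 1.55 for the other probe set of STEAP4. LDB3, DOCK8 and TMT1A rose by 4.95, 4.87 and 4.80, but their other probe sets had changes of 0.12 to 3.35, 0.04 to 4.31 and -0.01 to 0.24. SOX2, IGFBP5 and MUC20 had differences of like size and are given with their groups.

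HSD3B1, an enzyme that makes steroid hormones from their precursors, had the widest negative log2 difference among called genes. HSD3B1 had log2 values of 9.62, 9.55 and 9.44 in DMSO and 3.44, 3.42 and 2.74 in erlotinib. All 3 erlotinib arrays lie under the median of all probe sets, and the gene's other probe set had a log2 fold change of only -0.34. IL1RL1, the receptor of interleukin 33, fell by 5.41 on the log2 scale and IL1R2, the decoy receptor of interleukin 1, by 4.76. The membrane collagen COL13A1 fell by 5.02 and HAS3, a hyaluronan synthase, by 4.09, while HS3ST1, which sulfates heparan chains, fell by 3.94. The noncoding RNA LINC01127 fell by 4.25. Other probe sets moved less: the one of HAS3 had a log2 fold change of 0.00, those of COL13A1 -1.29 and -0.58 and those of HS3ST1 -0.97 and 0.03. Those of IL1RL1 had changes of -3.21 to -0.24 and the one of IL1R2 a change of -3.74.

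**Figure D1:**
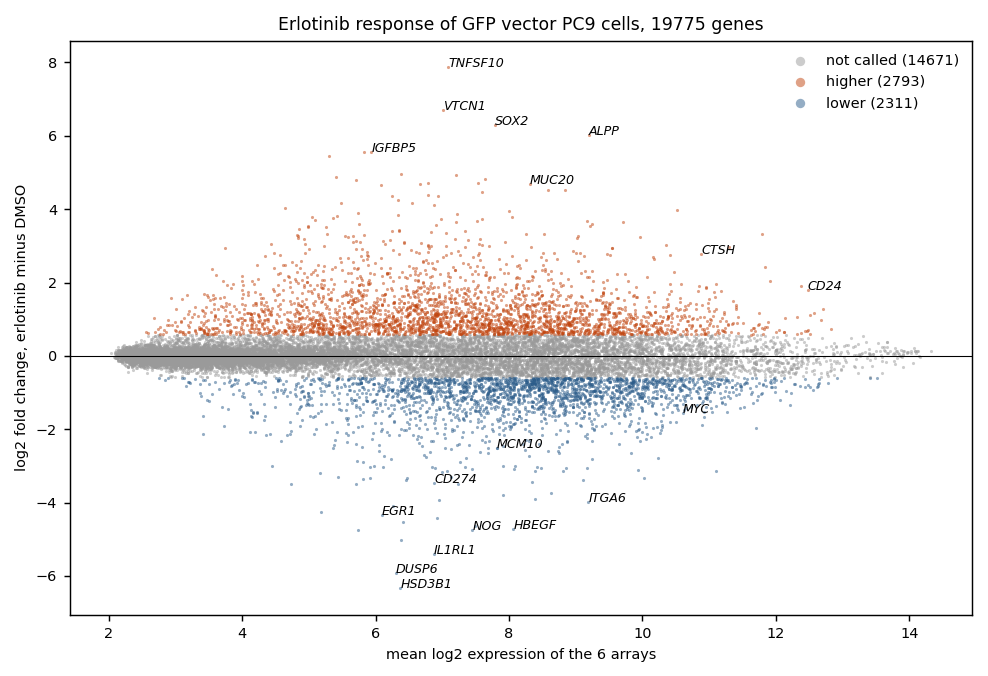
Each point is 1 of 19775 genes, with the mean log2 expression of the 6 arrays on the x axis and the log2 fold change of erlotinib against DMSO on the y axis. Red points are the 2793 genes called higher and blue points the 2311 called lower; TNFSF10 lies highest at 7.88 and HSD3B1 lowest at -6.34.

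The size of the change differed widely between programmes. Of the called genes, 1422 rose and 1079 fell by more than 1 log2 unit, and 93 rose and 51 fell by more than 3. In 554 of the genes called higher and 176 of those called lower even the higher group had a mean log2 value under 6, the low end of the scale. Called genes have 2254 further probe sets whose mean log2 value reaches 6, and 2158 of these moved the same way (95.7%). All further probe sets counted, 1139 of 3243 called genes that have any (35.1%) moved by less than 50% as far, or the other way, on every one of them. Named genes of this kind whose further probe sets are not given elsewhere are AXIN2, BCL2L14, CASP10, CASP9, CCND3, CDKN2B, CLDN4, DUSP7, ERAP1, ERBB2, EREG, ERN1, FASN, GATA2, GPX2, IL15, IL6R, ITGAM, JUND, KIF23, NCL, PARP14, PARP9, PFKP, PTGS2, SC5D, TNC, TNFRSF10D, WNT4 and YPEL3.

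**Figure D2:**
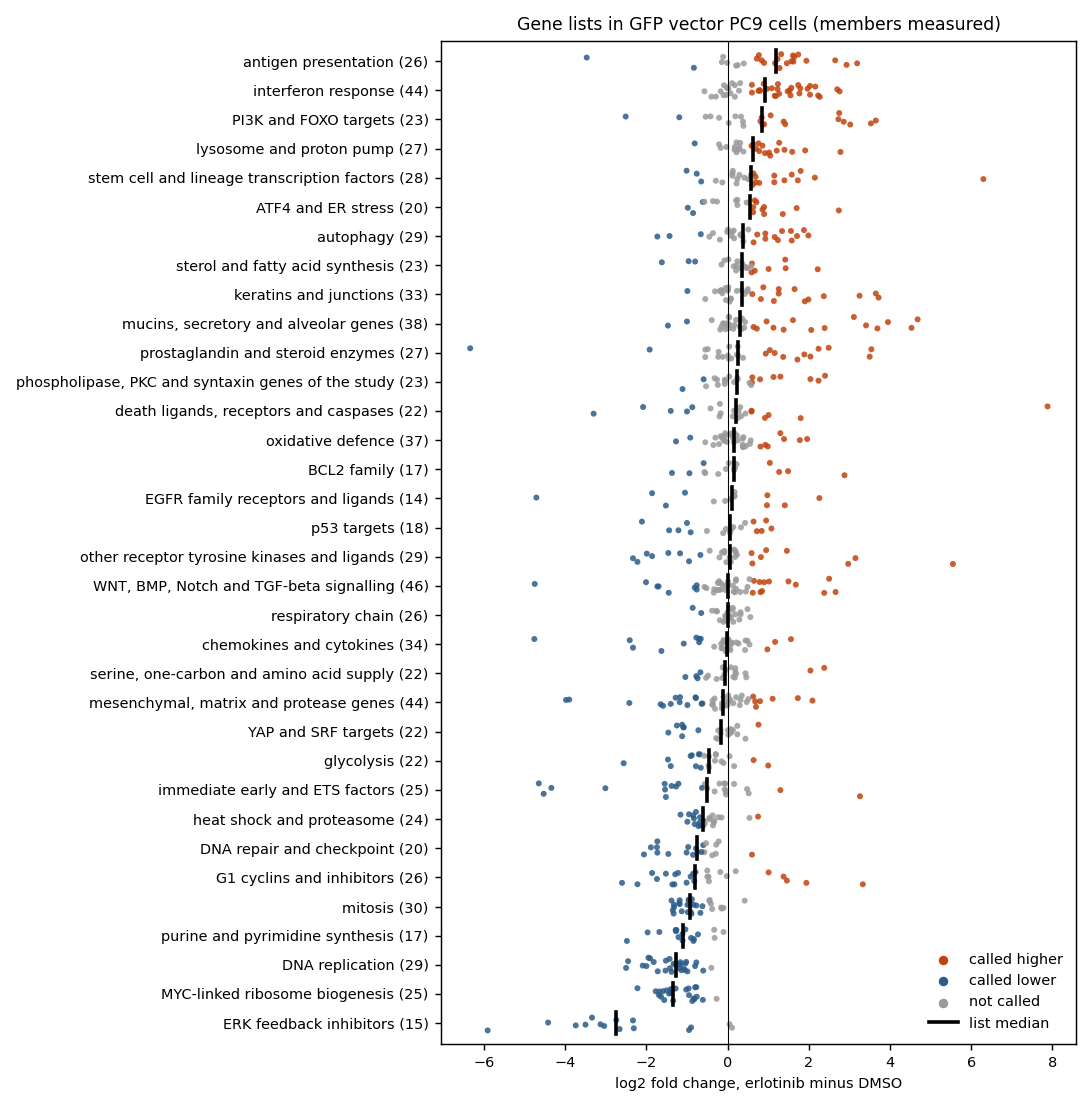
Rows are gene lists with the number of members measured, points are members at their log2 fold change of erlotinib against DMSO (x axis), and black bars are list medians. Medians run from -2.74 for the ERK feedback inhibitors to 1.20 for antigen presentation.

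Feedback inhibitors of the ERK cascade had the lowest list median. Of 15 genes that feed back on the ERK cascade, 13 were called lower and none higher, with a median log2 fold change of -2.74 beside 0.00 over all genes. DUSP6, the cytoplasmic phosphatase that dephosphorylates ERK, had log2 values of 9.42, 9.17 and 9.18 in DMSO and 3.58, 3.40 and 3.06 in erlotinib. The log2 difference was -5.91 (95% interval -6.32 to -5.50, adjusted p = 1.2e-10 from limma); the erlotinib arrays lie under the median of all probe sets, so no fold is drawn from it. The 2 other probe sets had changes of -6.13 and -3.94. The other ERK phosphatases DUSP4, DUSP5 and DUSP7 fell by 3.13, 2.74 and 3.04 on the log2 scale.

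The Sprouty and Spred proteins, which dampen RAS activation below receptor kinases, fell to different depths. SPRED1 and SPRED2 fell by 3.50 and 4.42 on the log2 scale, but 2 further probe sets of SPRED2 had changes of -0.03 and 0.03. SPRY4 fell by 3.34 and SPRY1 by 2.33, whereas SPRY2 fell by 0.90. SPRED3 and LZTR1, which targets RAS proteins for degradation, were not called (log2 fold changes 0.05 and 0.11). ERRFI1, the inhibitor that binds the EGFR kinase itself, fell by 2.31, from a mean log2 value of 10.40 to 8.09. PHLDA1, an early gene that restrains receptor signalling, fell by 3.74.

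Immediate early and ETS transcription factors were more often called lower than higher. Of 25 immediate early and ETS factors, 11 were called lower and 2 higher, with a median log2 fold change of -0.50. FOSL1, the AP-1 subunit most tied to sustained ERK activity, had log2 values of 9.80, 9.79 and 9.86 in DMSO and 5.02, 5.41 and 5.07 in erlotinib. EGR1, a zinc finger factor that ERK induces through SRF, had log2 values of 8.15, 8.19 and 8.44 in DMSO and 3.83, 4.10 and 3.84 in erlotinib. Neither gene's groups overlapped, and both erlotinib groups had means under a log2 value of 6. ETV5 and ETV4, the PEA3-type ETS factors, fell by 4.53 and 1.52 on the log2 scale, and FOS by 3.01. The other probe sets of ETV5 had changes of -2.80 to -0.27. MYC fell by 1.55 on the log2 scale. JUN had a change of -0.63, and its call was lost with quantile normalization repeated (-0.55) and without erlotinib replicate 2 (-0.57). JUNB, KLF4, ATF3 and FOSB were not called, with log2 fold changes between -0.08 and -0.04. Opposite to the members called lower, ELF3, an ETS factor of differentiated epithelium, rose from a mean log2 value of 7.40 to 10.66. Its 2 further probe sets had changes of 3.03 and 3.24. JUND, an AP-1 subunit known from quiescent cells, rose by 1.30.

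EGR1 is shown with the stretch before its start because the CArG box, the site of SRF, is the known route from ERK to this gene. Promoter sequences here are RefSeq's for GRCh38.p14, 5′ to 3′ on the gene's strand, and end before the transcription start. The capitals in chr5:138465359-138465420, plus strand, mark 2 CArG boxes, which begin at -105 and -83 relative to the start.
EGR1: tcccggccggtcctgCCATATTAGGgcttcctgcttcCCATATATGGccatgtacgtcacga
CArG boxes were found in the 250 bases before the start of 2 of 18 promoters of this list and in 176 of 15384 promoters of all genes tested (1.14%). Of those 176 genes, 24 were called lower and 21 higher.

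**Figure D3:**
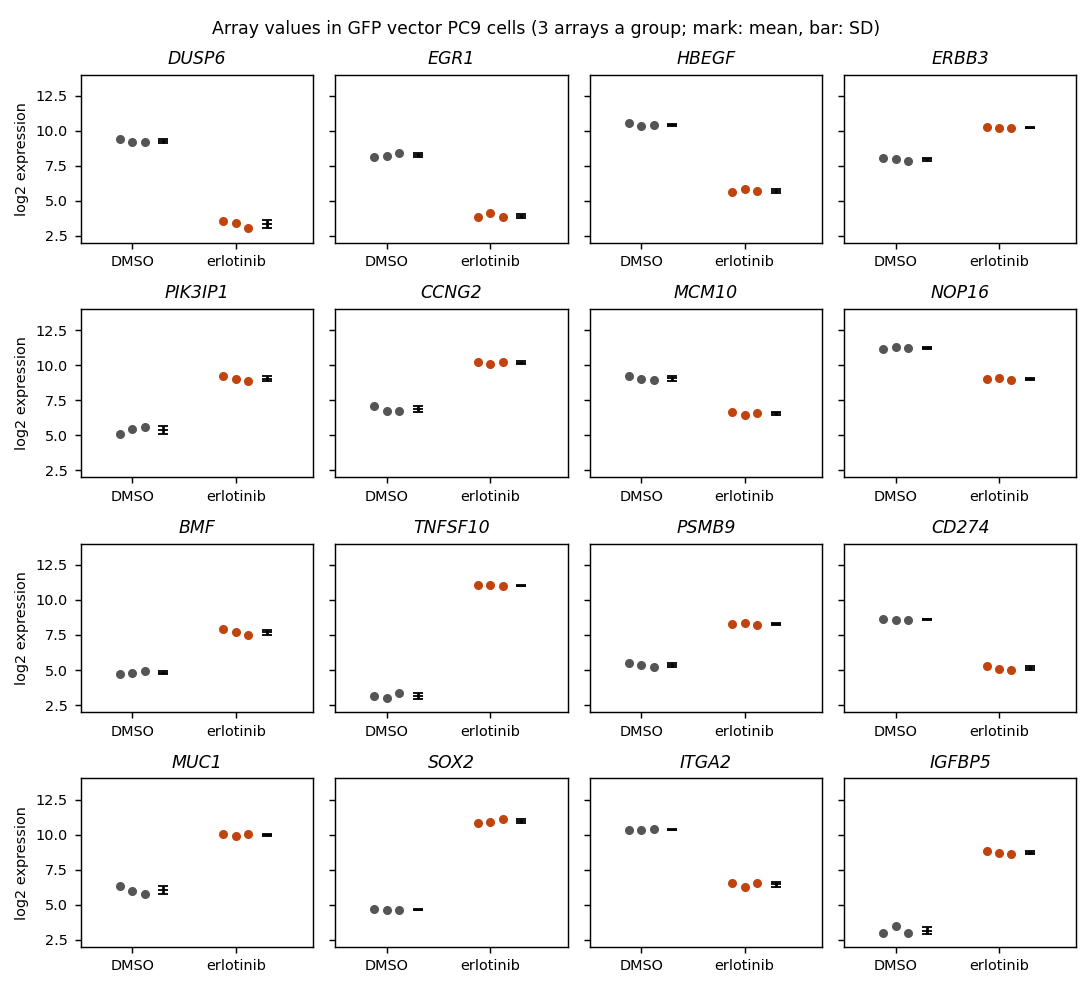
Panels show 16 genes named in the text, with log2 expression on the y axis, 1 point an array, a mark for the mean and a bar for the SD of 3 arrays. In every panel the 3 DMSO and the 3 erlotinib arrays are apart, and the group means differ by 7.88 log2 units for TNFSF10 and by 2.22 for NOP16.

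Both ligands and receptors of the EGFR family were called in each direction. Of 14 genes measured, 4 were called higher and 4 lower (28.6% each, beside 14.1% and 11.7% of all genes). The list's median log2 fold change of 0.12 turned to -0.07 with arrays centred. HBEGF, a ligand of EGFR and ERBB4, had log2 values of 10.52, 10.36 and 10.38 in DMSO and 5.61, 5.87 and 5.67 in erlotinib. On this probe set the DMSO arrays lie far above the erlotinib arrays, a 26.1-fold fall to a mean log2 value of 5.71. The gene's other probe sets had changes of -4.19 to -0.16. The EGFR ligands TGFA and EREG fell by 1.52 and 1.86 on the log2 scale. EGF and BTC rose by 0.98 and 0.97 but stayed at mean log2 values of 4.83 and 5.72. ERBB3, the kinase-impaired partner that couples the family to PI3K, had log2 values of 8.03, 7.99 and 7.84 in DMSO and 10.24, 10.21 and 10.18 in erlotinib. All 3 erlotinib arrays lie more than 2 log2 units above the DMSO arrays. ERBB2 rose by 1.41 and EGFR fell by 1.05, and both calls were lost when all probe sets of the gene were averaged (0.47 and -0.58). ERBB4 and the neuregulins NRG1 and NRG2 were not called.

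Receptors outside the family moved in both directions as well. Of 29 members of that list 8 were called higher and 8 lower (27.6% each, beside 14.1% and 11.7% of all genes). MET, the receptor of hepatocyte growth factor, had log2 values of 11.07, 11.02 and 11.01 in DMSO and 8.90, 8.74 and 8.81 in erlotinib. EPHA2, an ephrin receptor, fell by 2.33 on the log2 scale, ROR1 by 1.99 and AXL, a receptor of GAS6, by 1.46. FGFR3 rose by 3.15, INSR, the insulin receptor, by 1.46 and FGFR1 by 0.82, while IGF1R was not called (-0.03). The other probe set of FGFR3 had a change of -0.01. Binding proteins of insulin-like growth factors took part on both sides. IGFBP5 had log2 values of 3.00, 3.45 and 3.01 in DMSO and 8.80, 8.70 and 8.62 in erlotinib. Its 5 other probe sets had smaller changes, 0.48 to 2.77. IGFBP3 rose by 2.97 to a mean log2 value of 12.78, and IGFBP4 fell by 1.86.

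FOXO factors are known to drive a set of genes when PI3K and AKT are quiet. Of 23 measured members of a list that holds such genes and parts of the PI3K pathway, 13 (56.5%) were called higher and 2 lower, with a median log2 fold change of 0.84 and 0.65 after centring. PIK3IP1, which binds and inhibits PI3K, had log2 values of 5.07, 5.49 and 5.59 in DMSO and 9.23, 9.0 and 8.87 in erlotinib. PDK4, the kinase that shuts off pyruvate entry into the mitochondrial cycle, rose by 3.53 on the log2 scale, but its other probe sets had changes of 0.24 and 0.26. YPEL3, CITED2, BCL6 and YPEL5 rose by 3.02, 2.86, 2.75 and 2.73, and the FOXO factors FOXO1 and FOXO4 by 1.42 and 0.86. FOXO3 (0.38), KLF9 (0.03) and the sestrin SESN3 (-0.21) were not called. IRS1, the adaptor that links the insulin receptor to PI3K, fell from a mean log2 value of 9.07 to 6.56, and IRS2 had a log2 fold change of -0.54 and was not called. IRS2 was called lower with all probe sets averaged (-0.66) and with arrays centred (-0.74).

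Of 26 G1 regulators 14 were called lower and 5 higher. CCNE1, the cyclin that activates CDK2 at the G1 to S transition, fell by 2.60 on the log2 scale, although its other probe set had a change of -0.03. CDC25A, the phosphatase that activates that kinase, fell by 2.22, and CCND1, CCND3 and CCNE2 by 1.52, 1.29 and 1.31. MYBL2 and FOXM1, which drive late cell cycle genes, fell by 1.74 and 1.22. E2F3 and E2F7 fell by 1.36 and 1.86, while E2F1 (-0.50) and RB1 (-0.18) were not called. E2F1 was called lower with all probe sets averaged (-0.77) and with arrays centred (-0.70), and the other probe set of E2F7 had a change of 0.10. CCNG2, an unusual cyclin of resting cells and a FOXO target, had log2 values of 7.09, 6.72 and 6.77 in DMSO and 10.25, 10.07 and 10.24 in erlotinib. CDKN1B (p27), CDKN1C (p57) and CDKN2B (p15), inhibitors of the cyclin-dependent kinases, rose by 1.01, 1.94 and 1.46, and RBL2, the pocket protein of resting cells, by 1.38. CDKN1A (p21), which p53 and ERK both induce, fell by 0.91.

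Of 29 DNA replication genes 28 were called lower and none higher (median log2 fold change -1.28). MCM10, which helps to activate the replicative helicase, had log2 values of 9.24, 9.05 and 8.92 in DMSO and 6.67, 6.46 and 6.57 in erlotinib. CDC6, which loads the helicase on origins, fell by 2.45 on the log2 scale, and CDC45 and GINS2, parts of the active helicase, by 1.95 and 2.09. The 6 genes of the MCM2 to MCM7 ring fell by between 1.08 (MCM5) and 1.42 (MCM6). PCNA, the sliding clamp, fell by 1.05 and RRM2, the ribonucleotide reductase subunit, by 1.21. LIG1, which joins Okazaki fragments, had a change of -0.40 and was not called, though it was with arrays centred (-0.59). DNA repair followed with 13 of 20 called lower, led by CLSPN and CHEK1 of the replication checkpoint (-2.06 and -1.89) and EXO1 and RAD54L of recombination (-1.74 and -1.73). ATM, the kinase that answers double strand breaks, had a log2 fold change of 0.60 at the fold limit, and its call was lost with arrays centred (0.40) and without DMSO replicate 3 (0.58), erlotinib replicate 1 (0.55) or erlotinib replicate 2 (0.54).

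Of 30 mitotic genes 22 were called lower and none higher (median log2 fold change -0.92). KIF23, a motor of cytokinesis, fell by 1.38 on the log2 scale, CDC20, which activates the anaphase complex, by 1.35 and the spindle checkpoint gene MAD2L1 by 1.33. PLK1 had log2 values of 7.95, 8.05 and 7.77 in DMSO and 6.74, 6.86 and 6.79 in erlotinib. MKI67, the proliferation antigen Ki-67, fell by 1.18, BIRC5 (survivin) by 1.32 and CCNB1 by 0.93. CCNB2 (-0.10), KIF20A (-0.14) and CDC25C (0.42) were not called. No replication, repair or mitotic gene measured had both means under a log2 value of 6.

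The promoters of 3 S phase genes and 2 mitotic genes are shown because E2F sites and the cell cycle homology region, CHR, are the known elements of these groups. The letters TTTCGCGC, TTTGGCGC and TTTCCCGC were searched for E2F and TTTGAA and TTCGAA for CHR, on both strands, and capitals mark the matches. In MCM6 matches on the opposite strands overlap. The stretches are, in this order, chr2:135876507-135876610, minus strand, chr3:48188439-48188476, minus strand, chr16:85688963-85689000, minus strand, chr16:23678845-23678880, plus strand, and chr10:128126432-128126485, minus strand.
MCM6: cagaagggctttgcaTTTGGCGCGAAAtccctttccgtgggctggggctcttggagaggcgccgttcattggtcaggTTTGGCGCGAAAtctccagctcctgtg
CDC25A: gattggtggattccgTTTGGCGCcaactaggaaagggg
GINS2: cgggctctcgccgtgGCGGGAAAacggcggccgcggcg
PLK1: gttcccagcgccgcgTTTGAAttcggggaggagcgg
MKI67: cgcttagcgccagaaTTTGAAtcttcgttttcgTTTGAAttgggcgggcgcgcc
E2F letters stood in 12 of 27 promoters of the replication list (44.4%) and in 479 of all 15384 (3.11%). Of the 12 genes with the letters 11 were called lower, and of the 15 without them all 15 were. CHR letters stood in 13 of 25 mitotic promoters (52.0%) against 1810 of all (11.8%), and 9 of the 13 with and 8 of the 12 without were called lower. Members with and without the letters in this window were thus both called lower. Of all 479 genes with E2F letters 97 were called lower and 52 higher, and of all 1810 with CHR letters 218 and 223.

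**Figure D4:**
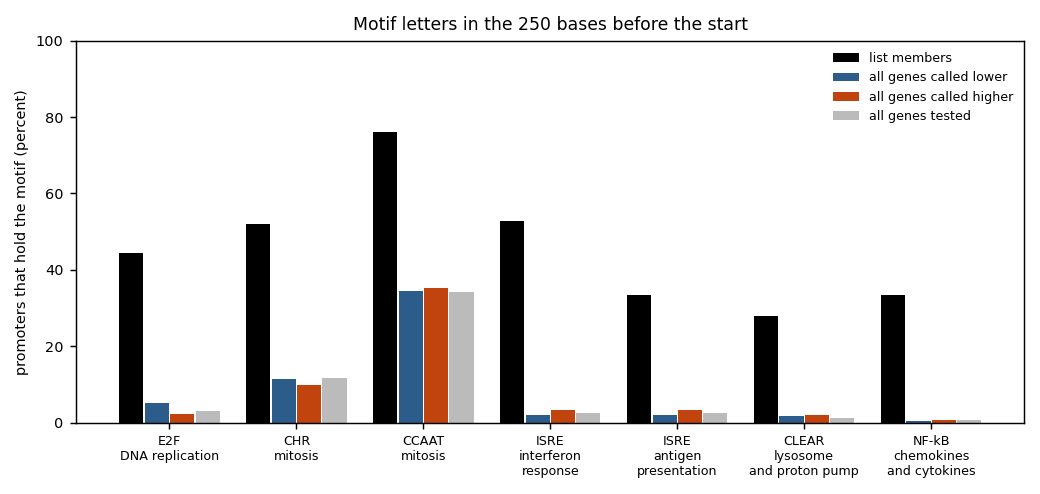
Bars give the percent of RefSeq promoters whose 250 bases before the start hold a motif, for the list named below it (black), all genes called lower (blue), all called higher (red) and all tested (grey). Only pairs in which the element is known for the list are drawn, not every motif searched. List members lie above the other bars, at 44.4% for E2F in DNA replication and 52.8% for ISRE in the interferon response. E2F letters stand in 5.1% of promoters of genes called lower, 2.28% of those called higher and 3.11% of all.

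Ribosome biogenesis, the best known target programme of MYC, had 24 of 25 members called lower and none higher, with a median log2 fold change of -1.34. NOP16, a nucleolar protein, had log2 values of 11.18, 11.31 and 11.20 in DMSO and 8.99, 9.07 and 8.97 in erlotinib. POLR1B, a core subunit of RNA polymerase I, fell by 1.69 on the log2 scale, TSR1 and BYSL of small subunit assembly by 1.77 and 1.68, and nucleolin (NCL) by 0.77. NPM1, the nucleolar chaperone with the highest level of the list, had a change of -0.27 and was not called. Nucleotide synthesis showed 14 of 17 called lower: CTPS1, which makes CTP, fell by 2.48, PPAT, the first committed enzyme of purine synthesis, by 1.68 and the pyrimidine enzyme UMPS by 1.26. IMPDH2 (-0.10), PRPS1 (-0.32) and ATIC (-0.33) were not called.

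Chaperone and proteasome genes had 13 of 24 called lower and 1 higher, with smaller changes (median log2 fold change -0.60). STIP1, which links HSP70 to HSP90, fell by 1.16 on the log2 scale and the chaperonin subunit CCT2 by 0.95. In glycolysis 9 of 22 genes were called lower (40.9%) and 2 higher (9.09%). PDK1, a sister kinase of PDK4, fell by 2.56, PFKP, a phosphofructokinase, by 1.47, and HK2, the inducible hexokinase, by 0.91, while LDHA (-0.46, called lower with arrays centred at -0.66), GAPDH (-0.31) and the glucose transporter SLC2A1 (-0.15) were not called. The respiratory chain had 2 of 26 members called, CYCS (-0.86) and CYC1 (-0.65), both cytochromes and both lower, the second of which was not called with quantile normalization repeated (-0.57). Its median log2 fold change was 0.01, and -0.18 with arrays centred, which moves every gene alike. Amino acid and one-carbon supply had 2 genes called higher and 4 lower of 22 (9.09% and 18.2%, beside 14.1% and 11.7% of all genes). ASNS, which makes asparagine, rose by 2.38 and ASS1, which makes arginine's precursor, by 2.04, but the other probe set of ASNS had a change of -0.14.

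Of 27 lysosomal genes 15 were called higher and 1 lower, with a median log2 fold change of 0.63 (11 called higher and a median of 0.43 after centring). CTSH, an aminopeptidase of the lysosome, had log2 values of 9.51, 9.49 and 9.48 in DMSO and 12.34, 12.19 and 12.28 in erlotinib. The acid ceramidase ASAH1 rose by 1.91 on the log2 scale, the sialidase NEU1 by 1.59, the peptidase TPP1 by 1.40 and the membrane protein LAMP2 by 1.27. LAMP1 (0.29), NPC1 (-0.03) and the pump subunit ATP6V1A (0.22) were not called, and GLA, the galactosidase, fell by 0.81. Autophagy had 12 of 29 called higher (41.4%) and 3 lower (10.3%), beside 14.1% and 11.7% of all genes. WIPI1, which binds the lipid of nascent autophagosomes, rose by 1.99, the ATG8 protein GABARAPL1 by 1.88, the receptor NBR1 by 1.71 and the initiating kinase ULK1 by 1.56. ATG16L1 fell by 1.73, and TFEB, the master factor of lysosomal genes, was not called (0.01).

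The CLEAR element, TCACGTGA, to which TFEB and related factors bind, is shown for CTSA and GAA, a protective protein of lysosomal enzymes and the acid glucosidase. CTSA rose by 1.21 and GAA by 0.70 on the log2 scale, and GAA was not called with arrays centred (0.50). The stretches are chr20:45891294-45891331, plus strand, and chr17:80101489-80101571, plus strand, with the palindrome in capitals.
CTSA: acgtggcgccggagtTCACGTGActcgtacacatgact
GAA: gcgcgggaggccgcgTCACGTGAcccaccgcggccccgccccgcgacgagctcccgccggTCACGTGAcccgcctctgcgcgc
The palindrome stood in 5 of 18 lysosomal promoters (27.8%) and 196 of all 15384 (1.27%). Of the 5 genes 2 were called higher, as were 8 of the 13 without it. Of all 196 genes with the palindrome 44 were called higher and 32 lower.

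The ATF4 and ER stress list holds genes of protein folding and degradation in the endoplasmic reticulum. Of its 20 members 10 were called higher and 3 lower. The counts of members were 6 and 4 after centring, and 9 and 0 with all probe sets averaged. HERPUD1, a component of ER-associated degradation, rose by 2.74 on the log2 scale, XBP1 by 1.7 and DNAJB9 by 1.36. The other probe sets of HERPUD1 and XBP1 had changes of 0.37 and 0.23. ATF4 itself (0.24) and PPP1R15A (0.21) were not called, and ERN1, the sensor upstream of XBP1, fell by 0.98. In sterol and fatty acid synthesis 7 of 23 were called higher (30.4%) and 3 lower (13.0%, near the share of all genes). INSIG1, the sterol-regulated brake, rose by 2.22, SC5D by 1.43 and MSMO1 by 1.42, whereas ELOVL6 and FASN of fatty acid synthesis fell by 1.62 and 0.96. After centring 4 of these genes were called higher and 3 lower.

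Cell death genes were called in both directions. In the BCL2 family 4 of 17 were called higher (23.5%) and 3 lower (17.6%), beside 14.1% and 11.7% of all genes. With all probe sets averaged 3 were called higher and 1 lower. The family's median log2 fold change of 0.16 turned to -0.04 with arrays centred. The genes that rose were all of the death-promoting kind or of uncertain role, but BOK, also of the death-promoting kind, fell. BOK had a log2 fold change of -0.94, and its call was lost with all probe sets averaged (-0.54). BMF, a BH3-only protein that binds the survival members, had log2 values of 4.71, 4.78 and 4.95 in DMSO and 7.90, 7.68 and 7.52 in erlotinib. BCL2L11 (BIM), the BH3-only protein that ERK is known to mark for destruction, had log2 values of 8.04, 7.91 and 7.77 in DMSO and 9.49, 9.32 and 9.39 in erlotinib. In neither gene did the groups overlap. HRK, a further BH3-only gene, rose by 1.27 on the log2 scale and BCL2L14 by 1.04, the latter to a mean of 4.63. BCL2L1, which encodes the survival protein BCL-XL, had log2 values of 9.01, 9.22 and 9.27 in DMSO and 7.82, 7.94 and 7.63 in erlotinib. MCL1 (-0.23), BCL2 (0.03) and the pore former BAX (-0.04) were not called, and BAK1 had a log2 fold change of -0.57, short of the fold limit. BAK1 was called lower without DMSO replicate 1 (-0.61), DMSO replicate 3 (-0.62) or erlotinib replicate 3 (-0.61).

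The TRAIL receptors went the other way from their ligand. TNFRSF10A, the first TRAIL death receptor, had log2 values of 8.69, 8.80 and 8.86 in DMSO and 5.60, 5.42 and 5.41 in erlotinib. Its erlotinib arrays lie more than 3 log2 units under the DMSO arrays, and both other probe sets fell to a like extent (-3.23 and -3.11). The second death receptor TNFRSF10B fell by 1.40 on the log2 scale, the decoy receptor TNFRSF10D by 2.08, FAS by 1.00 and the adaptor FADD by 0.87. TNFRSF1A, the receptor of tumour necrosis factor, rose by 0.92, CASP9 by 1.01 and CASP10 by 1.8. CASP8 (-0.19), CFLAR (-0.17) and XIAP (0.25) were not called. Targets of p53 were called 5 higher and 5 lower of 18 (27.8% each, beside 14.1% and 11.7% of all genes). XPC (1.08) and RRM2B (0.95) were among the former and AEN (-2.11) and TIGAR (-1.21) among the latter.

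**Figure D5:**
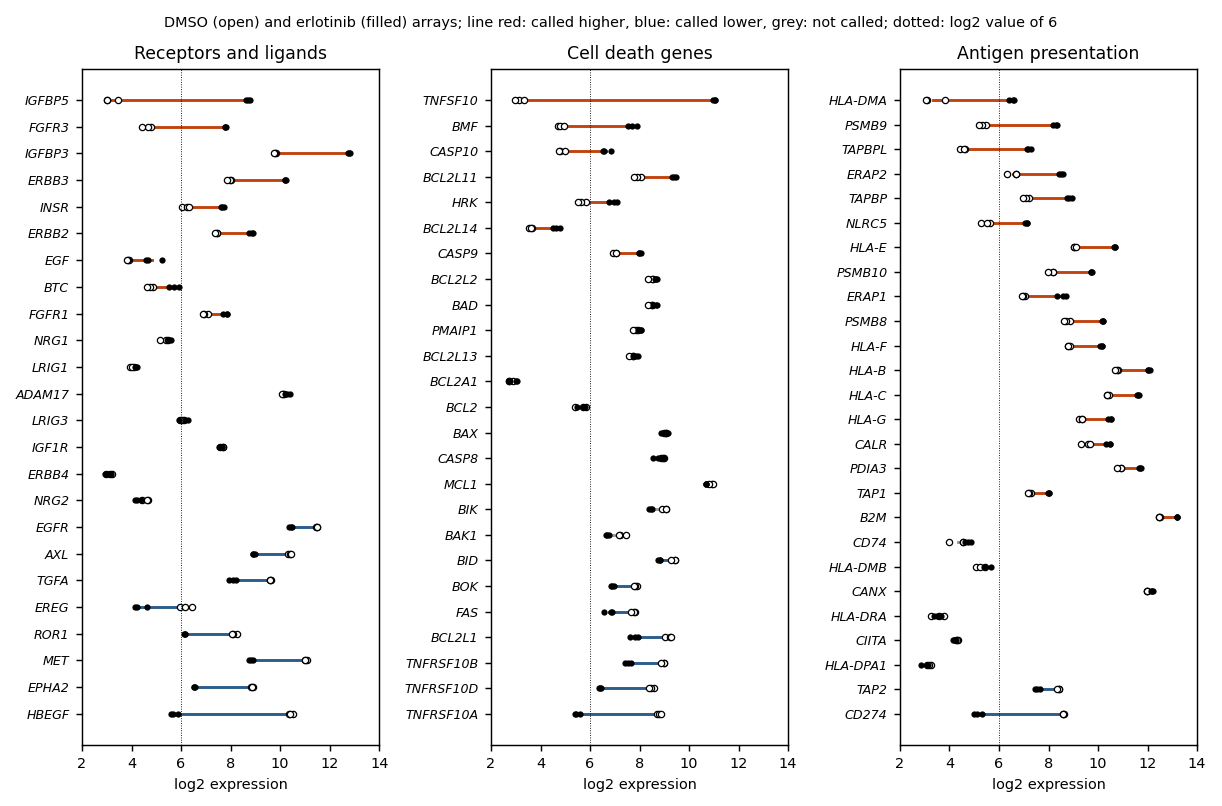
Each gene has its 3 DMSO arrays (open) and 3 erlotinib arrays (filled) on a log2 expression axis, joined by a line that is red where the gene was called higher, blue where lower and grey where not called; the dotted line marks a log2 value of 6. HBEGF fell by 4.71 while ERBB3 rose by 2.26, TNFSF10 rose by 7.88 while TNFRSF10A fell by 3.30, and CD274 fell by 3.47 among antigen presentation genes that mostly rose.

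Of 44 interferon response genes 28 were called higher and none lower, with a median log2 fold change of 0.93. ISG20, an interferon-induced exonuclease, had a change of -0.57, short of the fold limit, and was called lower without DMSO replicate 1 (-0.60) or erlotinib replicate 2 (-0.60). Many are weakly expressed, since 23 of the 44 had both means under a log2 value of 6. Among the 14 whose mean over all arrays reached 6, 13 were called higher. IRF9, the DNA-binding part of the complex that answers type I interferon, had log2 values of 5.80, 5.61 and 5.57 in DMSO and 8.29, 8.37 and 8.41 in erlotinib. PARP9 and PARP14, ADP-ribosyltransferases induced by interferon, rose by 2.76 and 2.03 on the log2 scale, IRF1 by 1.55, IFITM3 by 1.79 and MX1 by 2.16. The receptor chains IFNAR1 and IFNGR1 rose by 1.16 and 0.89 and the kinase JAK1 by 0.97. The ligands IFNB1 (0.11) and IFNL1 (-0.01) stayed under a log2 value of 4, and the classical targets RSAD2 (0.02), IFI27 (-0.10), IFI44L (-0.09) and OASL (0.18) were not called. With arrays centred 25 members were called higher and 2 lower.

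Antigen presentation had the highest list median, 1.20 on the log2 scale, with 18 of 26 called higher and 2 lower. PSMB9, a catalytic subunit of the immunoproteasome, had log2 values of 5.48, 5.33 and 5.21 in DMSO and 8.29, 8.34 and 8.19 in erlotinib. Its partners PSMB8 and PSMB10 rose by 1.46 and 1.61. HLA-B, HLA-C, HLA-E and HLA-F, whose probes can bind each other's transcripts, rose by 1.28, 1.23, 1.62 and 1.32, and B2M, their light chain, by 0.72 from a mean log2 value of 12.47 (0.53 and not called with arrays centred). The peptide trimming and loading genes ERAP1, ERAP2, TAPBP and TAPBPL rose by 1.57, 1.94, 1.74 and 2.65, and NLRC5, the transactivator of class I genes, by 1.64. TAP1 rose by 0.77 (0.58 and not called with arrays centred) while its partner in the peptide transporter, TAP2, fell by 0.83. Of the class II genes HLA-DMA rose from 3.33 to 6.52, but CIITA (-0.11) and HLA-DRA (-0.01) were not called. CD274, which encodes the checkpoint ligand PD-L1, had log2 values of 8.63, 8.6 and 8.6 in DMSO and 5.30, 5.10 and 5.0 in erlotinib. It was thus the member that fell most, in contrast to VTCN1 of the same family; its other probe set had a change of -1.11.

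The interferon-stimulated response element, searched on both strands as GAAA, any 2 bases and GAAA again, is shown for genes of both lists and for TNFSF10. The stretches are chr10:89327826-89327899, plus strand, chr3:122680795-122680834, plus strand, chr15:44711358-44711403, plus strand, chr6:32853808-32853853, minus strand, and chr3:172523593-172523632, minus strand. Capitals mark the matches, which overlap in B2M and TAP1.
IFIT3: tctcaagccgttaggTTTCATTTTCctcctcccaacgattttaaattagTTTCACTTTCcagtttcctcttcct
PARP14: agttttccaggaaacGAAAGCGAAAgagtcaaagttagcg
B2M: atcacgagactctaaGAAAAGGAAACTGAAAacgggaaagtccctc
TAP1: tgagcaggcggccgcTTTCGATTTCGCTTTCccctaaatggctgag
TNFSF10: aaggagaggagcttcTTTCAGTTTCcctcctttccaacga
The element stood in 19 of 36 promoters of the interferon list (52.8%), 7 of 21 of the antigen presentation list (33.3%) and 381 of all 15384 (2.48%). Of the 19 interferon genes with it 12 were called higher, as were 12 of the 17 without it. Of all 381 genes with it 75 were called higher and 37 lower. IFIT3 rose by 0.79 on the log2 scale, and its other probe set had a change of 2.79.

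Cytokine genes were mostly low, 22 of 34 lying under a log2 value of 6 in both groups. Called genes were 9 lower (26.5%) and 3 higher (8.82%), beside 11.7% and 14.1% of all genes. LIF, an interleukin 6 type cytokine, fell by 2.41 on the log2 scale, TNFAIP3, a brake on NF-kB, by 2.33, IL6R by 1.63 and VEGFA by 0.70. IL15 rose by 1.56, and CXCL10 and CXCL11, both interferon-induced chemokines, by 1.17 and 0.98, the latter pair to mean log2 values of 4.70 and 3.38. CXCL8 (-0.33) and IL6 (0.01) were not called. The NF-kB letters, GGGA, any base and TTTCC on either strand, stood in 8 of 24 promoters of this list (33.3%) and 85 of all (0.553%), and 1 of those 8 genes was called lower and none higher.

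Most mucin, secretory and alveolar genes of the airway were not called. Of 38 measured, 14 were called higher (36.8%) and 2 lower, while 22 had both means under a log2 value of 6. MUC1, a membrane mucin, had log2 values of 6.35, 5.95 and 5.78 in DMSO and 10.01, 9.90 and 10.04 in erlotinib. The membrane mucins MUC20, MUC16 and MUC4 rose by 4.68, 3.11 and 2.06 on the log2 scale, AQP3, a channel of basal epithelium, by 4.53, and AGR2, which folds mucins, by 3.69. SCGB1A1, the secretoglobin of club cells, rose from a mean log2 value of 4.54 to 7.95. The gel-forming mucins MUC5AC (0.36) and MUC5B (0.04) were not called, nor were SFTPC (0.41) and ABCA3 (0.35) of alveolar type II cells.

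Keratins and junction genes had 13 of 33 called higher (39.4%) and 1 lower. KRT4 and KRT13, the pair of stratified mucosa, had log2 fold changes of 3.72 and 1.90. KRT15 and KRT16 of basal and activated epithelium had 3.65 and 3.25, and all were called higher. The other probe set of KRT4 had a change of 0.4. CLDN3 and CLDN4, tight junction proteins, rose by 1.99 and 1.26 and TJP3 by 2.37. The simple keratins KRT7, KRT8, KRT18 and KRT19 and the adhesion genes CDH1 and EPCAM were not called, with log2 fold changes between -0.19 (EPCAM) and 0.50 (KRT8). Of 44 matrix and mesenchymal genes 14 were called lower (31.8%) and 7 higher (15.9%), beside 11.7% and 14.1% of all genes. ITGA2, a collagen-binding integrin, had log2 values of 10.31, 10.36 and 10.37 in DMSO and 6.54, 6.23 and 6.56 in erlotinib. The laminin receptor subunit ITGA6 fell by 3.98, tenascin (TNC) by 2.42, the urokinase receptor PLAUR by 1.59 and CD44 by 1.28. VIM fell by 1.65, although its other probe set had a change of 0.06. FN1 rose by 1.11 and COL12A1 by 2.09, while ZEB1 (-0.14), ZEB2 (0.02), SNAI1 (-0.13) and CDH2 (0.03) had means under 6 and were not called. Targets of YAP and SRF had 7 of 22 called lower (31.8%) and 1 higher (4.55%). Among those lower were CCN1 (-1.09), F3 (-1.12) and the coactivator WWTR1 (-1.12), while YAP1 itself was not called (-0.17).

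Developmental regulators held some of the widest changes. SOX2, a transcription factor of basal airway and stem cells, had log2 values of 4.71, 4.63 and 4.60 in DMSO and 10.83, 10.89 and 11.10 in erlotinib. The DMSO arrays are low on the scale and the erlotinib arrays high, though 3 further probe sets had changes of -0.38 to 2.62. Of 28 stem cell and lineage factors 13 were called higher and 3 lower (9 and 3 after centring), including SOX4 (1.73), GATA2 (1.58), KLF5 (1.40) and the surface protein CD24 (1.8). KDM5B, a histone demethylase, rose by 1.15, ALDH3A1 by 2.15, and SOX9 fell by 1.01. In WNT, BMP, Notch and TGF-beta signalling 12 of 46 were called higher and 8 lower (26.1% and 17.4%, beside 14.1% and 11.7% of all genes). NOG, the secreted antagonist of BMPs, had log2 values of 9.71, 9.90 and 9.86 in DMSO and 5.32, 5.01 and 4.90 in erlotinib. ID3, a BMP target, rose by 1.5 and ID1, a further one, fell by 0.76. WNT11, WNT4 and BAMBI rose by 2.66, 2.38 and 2.50, and AXIN2, a feedback target of the WNT pathway, by 1.68 to a mean of 5.39. The inhibitor DKK1 and the Notch ligand JAG1 fell by 2.01 and 1.7.

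Of 27 prostaglandin and steroid enzymes 11 were called higher (40.7%) and 2 lower, and the latter count was 4 without DMSO replicate 3 or erlotinib replicate 2. CYP1B1, which hydroxylates oestrogens, rose by 3.54 on the log2 scale, HPGD, which inactivates prostaglandins, by 3.50, PTGS2 (COX-2) by 2.49 and the lipoxygenase ALOX5 by 2.24. In oxidative defence 7 of 37 were called higher (18.9%, near the 14.1% of all genes), 2 were called lower and 28 were not called, and its median log2 fold change of 0.16 turned to -0.03 with arrays centred. Catalase (CAT) rose by 1.96, GPX2 by 1.78, HMOX1 by 1.30 and GPX4, the enzyme that repairs lipid peroxides, by 0.93. NFE2L2 (0.39), NQO1 (0.45) and TXNRD1 (-0.14) were not called, and SRXN1 fell by 0.92.

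The 3 genes that the study followed further took different courses in the control line. PRDX6, a peroxiredoxin that also has phospholipase A2 activity, had log2 values of 12.54, 12.49 and 12.51 in DMSO and 12.48, 12.44 and 12.44 in erlotinib. The groups did not overlap, yet the log2 fold change was -0.06 (95% interval -0.16 to 0.05) and PRDX6 was not called. PLCB4, a phospholipase C, had log2 values of 7.40, 7.09 and 6.98 in DMSO and 6.25, 5.86 and 6.04 in erlotinib. It fell by 1.11, and its other probe set had a change of -1.02. STX12, a syntaxin of endosomes, had log2 values of 8.14, 7.95 and 7.99 in DMSO and 8.67, 8.6 and 8.62 in erlotinib. Its rise of 0.61 was just past the fold limit, and the call was lost with arrays centred (0.41) and without DMSO replicate 2 (0.57). A list of 23 genes was built around these 3 and PRKCA, which the study also knocked down, by adding other phospholipases and protein kinase C genes. Of these 23, 8 were called higher (34.8%) and 2 lower (8.7%), beside 14.1% and 11.7% of all genes. PLD1 rose by 2.24, PLA2G4A by 2.04 to a mean of 5.17, and PRKCD, a protein kinase C that needs no calcium, by 1.30, while PRKCA was not called (0.25). PLCB1 rose by 2.40, but its 2 other probe sets had changes of 0.03 and 0.10.

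The same treatment was applied to the pre-miR-371 line, and the difference between the erlotinib responses of both lines passed the limits in 158 genes (0.799%). Of the genes shown by array above, DUSP6, HBEGF, FOSL1, SOX2, IGFBP5, BMF, PSMB9 and HSD3B1 were not among them, with differences of -0.09, 0.35, -0.03, -0.35, -0.23, 0.05, -0.30 and 0.03 on the log2 scale (pre-miR-371 minus GFP vector).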

How the data were processed

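The authors deposited log2 expression values from Affymetrix Hgu133plus2 arrays, 1 value per probe set and array. Quantile normalization is named in the study's methods; RMA and affy, without versions, are in the submitters' processing notes, so background correction, normalization between arrays and probe summary are already in the values. Of 54675 probe sets, 41097 had 1 gene symbol in the platform's annotation, 1801 several and 11777 none listed; 62 control probe sets were left out. Symbols were updated through Entrez identifiers for 19735 of 19775 genes. Of these genes, 10523 had several probe sets, and the one with the highest mean over the 12 arrays was used. No pair of arrays held identical values (0 pairs). The number of arrays, 3 a group, limits the precision of each value.

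Fold changes, standard errors, 95% intervals and p-values came from limma 3.58.1 under R 4.3.3, in which lmFit and eBayes were applied to all 12 arrays with 1 mean per group (8 residual degrees of freedom), with Benjamini-Hochberg adjustment over all genes. Genes were called where the adjusted p was below 0.05 and the fold above 1.5, as in the study's methods. The model was tested on simulated data. Members of gene lists were counted and their median given, with no list test. The members and lists were chosen with earlier results of these data known. Genes named are the 15 steepest rises and the 15 steepest falls among called genes whose groups do not overlap and whose higher group has a mean log2 value of at least 6, the 5 members of lowest p in each list at most, any other list member with its values, and PRDX6, PLCB4 and STX12. Not every gene that this rule takes is printed. Replicate numbers were not used to pair arrays: same-numbered DMSO and erlotinib arrays deviated from their group means with correlations of 0.20, -0.02 and 0.11. Promoter letters were read from RefSeq sequences of GRCh38.p14 for 15384 genes, the first start listed for each, of which 3915 have several; only the 250 bases before the start were searched. The alternatives were averaging all probe sets of a gene, requiring a mean log2 value of 6, fitting the 6 GFP vector arrays alone, blocking on replicate number, repeating quantile normalization, centring arrays on their medians, a trended and robust variance, weighting arrays, leaving out each GFP vector array, and other fold limits. Python 3.11.15 with matplotlib 3.10.9 drew the figures.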

Additional observations from a re-analysis of the deposited data

Results flagged for a closer look

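In 158 genes (0.799% of those tested) the erlotinib response differed from that of the pre-miR-371 line by limma's test of the difference itself, with the same limits on adjusted p and fold, and the following of them are named above. Each value is the log2 fold change in pre-miR-371 cells minus that in GFP vector cells, its adjusted p from limma lay between 0.00415 and 0.0376, and each gene moved in the same direction in both lines. Among genes that fell in the control line, the difference was 1.14 for EGR1, 0.65 for FOS, 0.96 for NOG, 0.87 for CD274, 0.78 for HS3ST1 and 0.66 for TNFAIP3, so these fell less in the pre-miR-371 line. The same held for cell cycle genes, with 1.04 for E2F7, 0.94 for CCNE2, 0.59 for FOXM1, 0.82 for CLSPN, 0.80 for CDC6, 0.79 for CDC45, 0.77 for MCM10, 0.67 for MCM6, 0.67 for GINS2, 0.66 for EXO1, 0.61 for RAD54L, 0.77 for MKI67 and 0.69 for KIF23. Among genes that rose in the control line, TNFSF10 (-0.80), MUC20 (-0.79), STEAP4 (-0.73), GBP2 (-0.69), AGR2 (-0.74), TAPBPL (-0.61) and HPGD (-1.28) rose less in the pre-miR-371 line, and FGFR3 (0.75) and CXCL11 (0.97) rose more. In the control line TNFSF10 in DMSO, EGR1 in erlotinib and CXCL11 in both groups lie under the median of all probe sets. The size of their differences is therefore unsure, and the other probe set of FGFR3 had a control line change of -0.01. With 1 stable line of each kind, the hairpin and the particular line cannot be told apart.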

How the results depend on the processing

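The calls rested on the fold limit, because all 5104 genes past it also passed the adjusted p (highest 0.0409). The count was therefore again 5104 with only the 6 GFP vector arrays, with the replicate block and with trend and robust variance, which says nothing of stability; by adjusted p alone the count was 9853, and 9233, 9982 and 9942 in those fits. With a fold over 2, 2501 genes were called (1422 higher and 1079 lower), and with no fold limit 9853 (5235 and 4618). The mean of all probe sets gave 4132, and a mean log2 value of at least 6 gave 3998 of 9650 genes tested, 1974 higher and 2024 lower. Repeated quantile normalization gave 2861 and 2193, array weights 2822 and 2286, and centred arrays 2032 and 3246, where 38.5% of calls were higher beside 54.7%. Leaving out 1 array at a time gave 5058 to 5167 calls, 2738 to 2860 higher and 2198 to 2429 lower. With the replicate number as a block, 154 genes differed between the lines beside 158; same-numbered arrays do not pair, and the block changed no other call. In 6079 recomputed values of named genes, no gene called in the main fit or in the alternative changed direction. Changes of sign in genes called in neither were not counted, and several alternatives leave the fold change as it is. Among these values 86 calls were lost and 58 gained, most of them by the fold limits. With all probe sets averaged, those lost include EGFR, ERBB2, FGFR1, JUND, CASP9, CASP10, BCL2L14, ERAP1, JAK1, FASN, ERN1, AXIN2 and NCL, while E2F1, IRS2 and ISG20 were gained. With arrays centred, LDHA, LIG1 and BAK1 were gained as well. Centring moves the change of every gene by the same -0.19, so the list medians had to move alike and their shift says nothing about the lists. Why the array medians differ between DMSO and erlotinib was not tested.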
